A study of Mus musculus with 5 samples.

Results

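The genes described here are 10 ligands and surface signals through which antigen-presenting cells speed or restrain T cells, namely Cd80, Cd86, Cd40, Cd83, Cd274, Pdcd1lg2, Icosl, Cd276, Tnfsf9 and Tnfsf4. They were chosen by exact symbol, and all 10 occur among the 55291 gene symbols of every library. The study sequenced mouse bone marrow RNA, with monocytes given as the cell type, from 2 Tet2-mutant samples (replicates 2 and 3) and 3 wild-type samples (replicates 1, 2 and 3). Tet2 oxidises methylcytosine in DNA. The kind of Tet2 allele, any Cre driver, treatment or age, the isolation of the cells and the sense of HR, as the mutant samples are titled, were not given in the sources used here.

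T cells need more than a peptide on an MHC molecule. CD80 and CD86 of the B7 family bind CD28, which promotes activation, and CTLA-4, which restrains it, while PD-L1 (Cd274) and PD-L2 (Pdcd1lg2) bind PD-1 and dampen the T cell. ICOS ligand (Icosl) and the TNF family members 4-1BBL (Tnfsf9) and OX40L (Tnfsf4) sustain T cells that are already activated, and CD40 receives the return signal from CD40 ligand on helper T cells. Dendritic cells, macrophages and B cells carry most of these molecules, and resting monocytes carry few of them apart from CD86.

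Libraries held 17459808 and 60508381 counts in mutant replicates 2 and 3 and 53789308 to 72414875 counts in the wild type. The mutant replicate 2 values thus rest on the fewest reads. Genes with any count numbered 18047 and 17944 in mutant replicates 2 and 3. In wild-type replicates 1, 2 and 3 they numbered 24532, 25612 and 26207, and the cause of this difference was not tested. Tet2 itself was at 5.31 and 15.6 CPM (mutant replicates 2 and 3), against 11.9, 9.77 and 10.6 CPM in wild-type replicates 1, 2 and 3. The fitted log2 fold change of Tet2 was -0.04 ± 0.58 (SE; edgeR adjusted p = 0.966), which leaves the genotype labels unchecked, as mutated genes can still be transcribed. The mutant libraries stood apart from each other. Their log2 CPM correlated at r = 0.885 across genes, which are not independent replicates, and the wild-type libraries correlated at 0.975 to 0.984. Mutant replicate 2 correlated better with each wild-type library, at 0.904 to 0.91, than with mutant replicate 3. CPM here is computed on the library size after TMM scaling, which sets libraries against each other by the bulk of their genes. Nothing in the labels says that samples of 1 genotype came from separate animals, so p-values measure the spread between these samples only.

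The labelled cell type was checked against marker genes. The monocyte genes Ly6c2 and Csf1r were present in all 5 libraries, at 383.6 and 164.5 CPM and at 520.7 and 332.0 CPM in mutant replicates 2 and 3. In wild-type replicates 1, 2 and 3, Ly6c2 was at 350.8, 500.3 and 408.7 CPM and Csf1r at 137.1, 102.2 and 122.3 CPM. The neutrophil gene Ngp was far above both, at 25515.3 and 13815.4 CPM in the mutant and 16169.9 to 21719.9 CPM in the wild type, so the libraries hold RNA of other cells as well. In such bulk RNA, more cells of a type and more RNA per cell cannot be told apart, and this holds for every ligand below.

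The antigen-presenting ligands were higher in the Tet2-mutant libraries almost throughout. Of the 10 genes, 8 rose and 0 fell in the edgeR quasi-likelihood test (p adjusted by Benjamini-Hochberg over all 17062 tested genes, threshold 0.05), while 10.6% of all tested genes rose and 4.43% fell. Their log2 fold changes ran from 1.17 to 5.31 with a median of 3.72, beside a median of -0.07 over all genes tested. In 9 of the 10 genes both mutant libraries lay above every wild-type library, which was so for 22.9% of all tested genes. Icosl and Tnfsf4 did not pass the test. At an unadjusted p under 0.05 edgeR had 9 higher and 0 lower (20.5% of all tested genes were higher), DESeq2 called 9 higher and 0 lower (17.4% higher), and limma-voom 6 higher and 0 lower (10.8% higher). Summed, the 10 genes made up 1104.9 and 1002.7 CPM (mutant replicates 2 and 3), against 122.8, 83.1 and 67.2 CPM in wild-type replicates 1, 2 and 3. The number that passed was 4, 5 and 4 without wild-type replicates 1, 2 and 3, in fits where 3.81%, 5.41% and 5.09% of all tested genes rose. It was 9 without mutant replicate 2 or 3, in fits where 26.5% and 21.0% of all tested genes rose and where the variation of the lone mutant library was taken to equal that of the wild type.

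**Figure D1:**
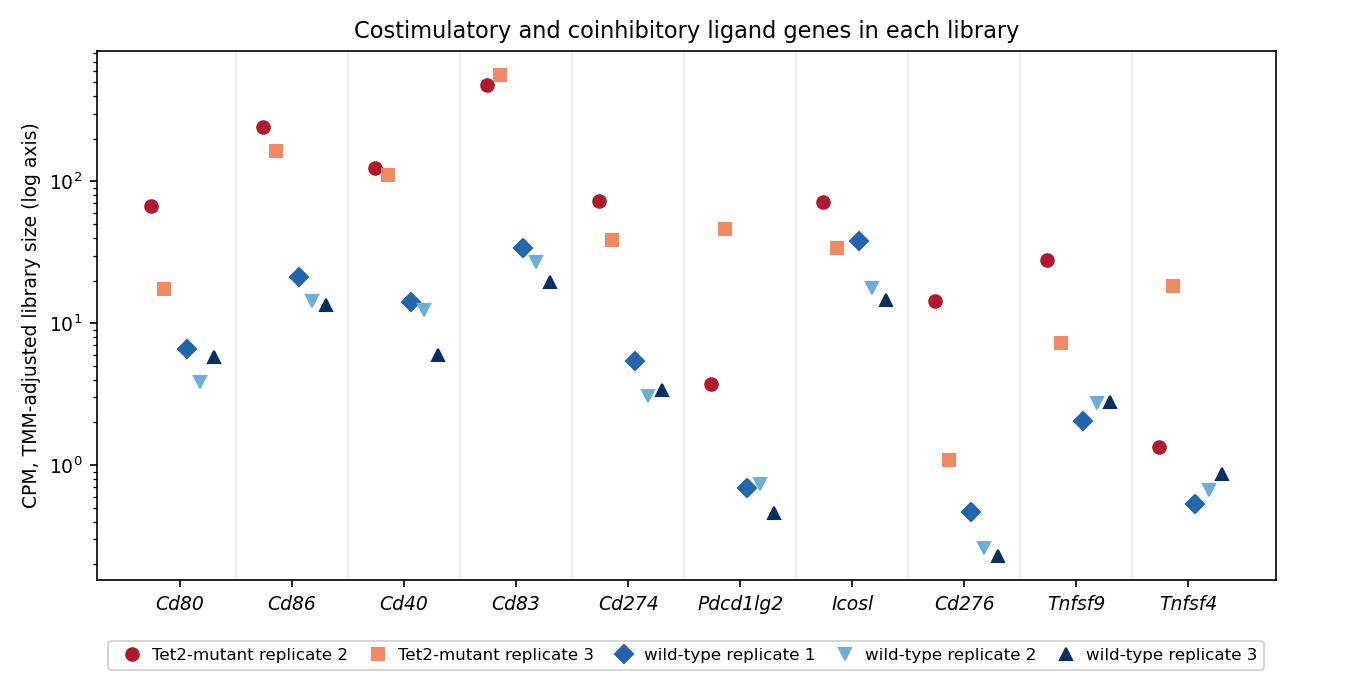
CPM of each ligand gene in each library on a log axis, with Tet2-mutant libraries in red and orange and wild-type libraries in blue; 1 point is 1 library. Both mutant points lie above all wild-type points in 9 of 10 genes, Icosl is the exception, and the mutant points of Pdcd1lg2, Cd276 and Tnfsf4 lie more than 10-fold apart.

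Scaling bears on these sizes. With plain library totals in place of TMM scaling the median change over all genes moved by -0.51 on the log2 scale, and with upper-quartile scaling by -0.28. TMM scaling called 1801 genes higher and 755 lower, plain totals 1181 higher and 2877 lower, and upper-quartile scaling 1419 higher and 1837 lower. On plain totals the 10 log2 fold changes still ran from 0.59 to 4.92, all above 0, and 8 passed. On that scale Cd86 stood at 175.3 and 146.7 CPM in mutant replicates 2 and 3, against 24.7, 16.6 and 15.4 in wild-type replicates 1, 2 and 3.

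Cd86 and Cd80 encode the CD28 and CTLA-4 ligands. Both lie on chromosome 16, Cd86 at chr16:36603869-36666081 (minus strand) and Cd80 at chr16:38455561-38496335 (plus strand; GENCODE M21, GRCm38, as for all genes here). Cd86 had 3061 and 8874 counts in mutant replicates 2 and 3, or 242.5 and 163.8 CPM, against 1580, 1201 and 827 counts in wild-type replicates 1, 2 and 3, or 21.2, 14.3 and 13.5 CPM. The groups lay far apart, and the mutant libraries differed by 1.48-fold. The mean was 203.1 ± 55.6 CPM in the mutant (SD, n = 2) and 16.3 ± 4.22 CPM in the wild type (SD, n = 3), a log2 fold change of 3.64 ± 0.33 (SE; edgeR adjusted p = 0.00156). Cd86 kept its call in every alternative tried, each left-out library included.

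Cd80 was less even. It stood at 67.0 and 17.4 CPM (mutant replicates 2 and 3), against 6.63, 3.87 and 5.79 CPM in wild-type replicates 1, 2 and 3. Both mutant libraries were above the wild type, and replicate 2 was 3.86-fold above replicate 3. Cd80 rose by a log2 fold change of 2.95 ± 0.61 (SE; edgeR adjusted p = 0.0262). The call was lost without wild-type replicate 1, 2 or 3 (edgeR adjusted p = 0.0826, 0.0578 and 0.0539), and the log2 fold change was 1.67 without Tet2-mutant replicate 2 and 3.62 without Tet2-mutant replicate 3.

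Cd40, a TNF receptor family member that licenses antigen-presenting cells when CD40 ligand binds it, lies at chr2:165055627-165072948 (plus strand). It was at 124.9 and 111.5 CPM (mutant replicates 2 and 3), against 14.1, 12.5 and 5.96 CPM in wild-type replicates 1, 2 and 3. The mutant libraries agreed to within 1.12-fold, closer than for any other of the 10 genes, and the wild-type libraries spread over 2.36-fold. Cd40 rose by a log2 fold change of 3.45 ± 0.41 (SE; edgeR adjusted p = 0.00419).

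Cd83 marks activated dendritic cells and B cells and steadies MHC class II and CD86 at the cell surface (chr13:43784775-43803132, plus strand). It was the most abundant of the 10 genes, with 6046 and 30600 counts in mutant replicates 2 and 3, or 479.0 and 564.8 CPM, against 2526, 2279 and 1198 counts in wild-type replicates 1, 2 and 3, or 33.9, 27.2 and 19.6 CPM. No library of 1 genotype came near the other. The mean was 521.9 ± 60.7 CPM in the mutant (SD, n = 2) and 26.9 ± 7.16 CPM in the wild type (SD, n = 3), a log2 fold change of 4.28 ± 0.31 (SE; edgeR adjusted p = 0.000848). Cd40 and Cd83 kept their calls in every alternative tried.

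The PD-1 ligands Cd274 (chr19:29367455-29388095) and Pdcd1lg2 (chr19:29410919-29471161) are neighbours on the plus strand, 22823 bases apart. Their promoter sequences are shown because the pair shares a locus and yet parted between the mutant libraries, and that of Cd80 because it too differed between them. Each is the 250 bases before the RefSeq start (build GRCm38.p6) from 5′ to 3′, at chr19:29367188-29367437 for Cd274, chr19:29410669-29410918 for Pdcd1lg2 and chr16:38458683-38458932 for Cd80, all on the plus strand. All 250 bases of the Cd80 window lie inside the GENCODE gene, which starts farther upstream, and 0 bases of the Cd274 and Pdcd1lg2 windows lie inside theirs. Capitals mark a match on either strand to the NF-kB consensus, the ISRE core (GAAA, any 2 bases, GAAA), the GAS motif TTCNNNGAA, the AP-1 motif TGANTCA or the PU.1 core GAGGAAG.
Cd274: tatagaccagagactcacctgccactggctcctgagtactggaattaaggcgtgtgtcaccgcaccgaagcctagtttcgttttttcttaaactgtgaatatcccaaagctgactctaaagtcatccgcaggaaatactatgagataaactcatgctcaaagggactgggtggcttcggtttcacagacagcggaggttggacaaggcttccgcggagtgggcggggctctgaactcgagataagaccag
Pdcd1lg2: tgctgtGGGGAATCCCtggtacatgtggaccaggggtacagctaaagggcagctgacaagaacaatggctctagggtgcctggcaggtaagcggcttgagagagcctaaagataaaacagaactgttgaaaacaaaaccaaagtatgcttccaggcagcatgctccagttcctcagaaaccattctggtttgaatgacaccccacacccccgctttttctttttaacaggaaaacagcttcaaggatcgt
Cd80: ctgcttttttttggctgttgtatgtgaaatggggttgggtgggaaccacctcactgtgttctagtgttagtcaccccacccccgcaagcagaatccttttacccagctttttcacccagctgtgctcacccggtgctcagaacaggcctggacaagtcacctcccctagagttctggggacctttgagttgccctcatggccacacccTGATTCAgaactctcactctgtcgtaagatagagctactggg
The capitals in Pdcd1lg2 match the NF-kB consensus on both strands, 244 to 235 bases before the start. Such a match occurs in 3.9% of all 32851 promoter windows of this length. The capitals in Cd80 are an AP-1 match 42 to 36 bases before the start, found in 6.75% of windows. The Cd274 window holds none of the 5 motifs, which says only that these letters are not in it. The ISRE core occurs in 2.98% of windows, the GAS motif in 7.02% and the PU.1 core in 10.6%, and no match overlapped another motif. The windows held 11 CpG sites in Cd274, 3 in Pdcd1lg2 and 3 in Cd80, with a median of 6 over all windows. Of the 10 genes, 5 were in the RefSeq promoter table. The windows of Icosl and Cd276 held 23 and 29 CpG sites, and the only motif in either was 1 PU.1 core in Cd276. Of the 250 bases, 66 in the Icosl window and all 250 in the Cd276 window lie inside the GENCODE gene.

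Cd274, encoding PD-L1, was at 72.7 and 38.5 CPM (mutant replicates 2 and 3), against 5.43, 3.05 and 3.41 CPM in wild-type replicates 1, 2 and 3. The groups did not overlap. The mean was 55.6 ± 24.2 CPM in the mutant (SD, n = 2) and 3.96 ± 1.28 CPM in the wild type (SD, n = 3), a log2 fold change of 3.81 ± 0.46 (SE; edgeR adjusted p = 0.00431). The call held in every alternative tried.

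Pdcd1lg2, encoding PD-L2, had 47 and 2497 counts in mutant replicates 2 and 3, or 3.72 and 46.1 CPM. Wild-type replicates 1, 2 and 3 held 51, 62 and 28 counts, or 0.684, 0.739 and 0.457 CPM. Both mutant libraries exceeded the wild type, but replicate 3 was 12.4-fold above replicate 2, the reverse of the order seen for Cd274. Pdcd1lg2 had the largest fitted rise of the 10 genes, with a log2 fold change of 5.31 ± 1.01 (SE; edgeR adjusted p = 0.0209). It was 2.56 without Tet2-mutant replicate 3 and 6.19 without Tet2-mutant replicate 2, and the call was lost without wild-type replicate 1 (edgeR adjusted p = 0.101) or 3 (edgeR adjusted p = 0.0523).

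The other B7 relatives behaved differently from each other. Icosl, the ligand of ICOS (chr10:78069302-78083913, plus strand), was at 71.4 and 33.9 CPM (mutant replicates 2 and 3), against 37.8, 17.8 and 14.7 CPM in wild-type replicates 1, 2 and 3. Wild-type replicate 1 exceeded Tet2-mutant replicate 3, so the groups overlapped. The log2 fold change was 1.17 ± 0.52 (SE; edgeR adjusted p = 0.137), and it passed in 1 alternative, without Tet2-mutant replicate 3 (1.60, edgeR adjusted p = 0.0408).

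Cd276, encoding B7-H3 (chr9:58524298-58555437, minus strand), was the scarcest of the 10 genes in the wild type. It had 182 and 59 counts in mutant replicates 2 and 3, or 14.4 and 1.09 CPM, against 35, 22 and 14 counts in wild-type replicates 1, 2 and 3, or 0.469, 0.262 and 0.229 CPM. Tet2-mutant replicate 2 was 13.2-fold above replicate 3, which lay little above the wild type. Cd276 rose by a log2 fold change of 4.58 ± 1.14 (SE; edgeR adjusted p = 0.0414). The estimate was 1.76 without Tet2-mutant replicate 2 and 5.47 without Tet2-mutant replicate 3, and without any 1 wild-type library the call was lost (edgeR adjusted p = 0.12 to 0.129). The call was also absent with the replicate block (4.03, edgeR adjusted p = 0.349).

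Of the TNF family ligands, Tnfsf9 encodes 4-1BBL (chr17:57105325-57107757, plus strand) and Tnfsf4 encodes OX40L (chr1:161395409-161418410, plus strand). Tnfsf9 was at 27.9 and 7.31 CPM (mutant replicates 2 and 3), against 2.06, 2.73 and 2.77 CPM in wild-type replicates 1, 2 and 3. The groups did not overlap, and replicate 2 was 3.82-fold above replicate 3. Tnfsf9 rose by a log2 fold change of 2.80 ± 0.68 (SE; edgeR adjusted p = 0.0398). The call was lost without any 1 wild-type library (edgeR adjusted p = 0.11 to 0.133) and with the replicate block (2.37, edgeR adjusted p = 0.419), and the log2 fold change was 1.53 without Tet2-mutant replicate 2 and 3.46 without Tet2-mutant replicate 3.

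Tnfsf4 went the other way between the mutant libraries, with 17 and 994 counts in mutant replicates 2 and 3, or 1.35 and 18.3 CPM. Wild-type replicates 1, 2 and 3 held 40, 56 and 53 counts, or 0.536, 0.667 and 0.865 CPM. Tet2-mutant replicate 3 was 13.6-fold above replicate 2, and replicate 2 lay close above the wild type. The log2 fold change of 3.84 ± 1.06 (SE) fell just short of the threshold (edgeR adjusted p = 0.0507). It was 0.96 without Tet2-mutant replicate 3 (edgeR adjusted p = 0.161) and 4.73 without Tet2-mutant replicate 2 (edgeR adjusted p = 0.000385), so the estimate rested on a single library.

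**Figure D2:**
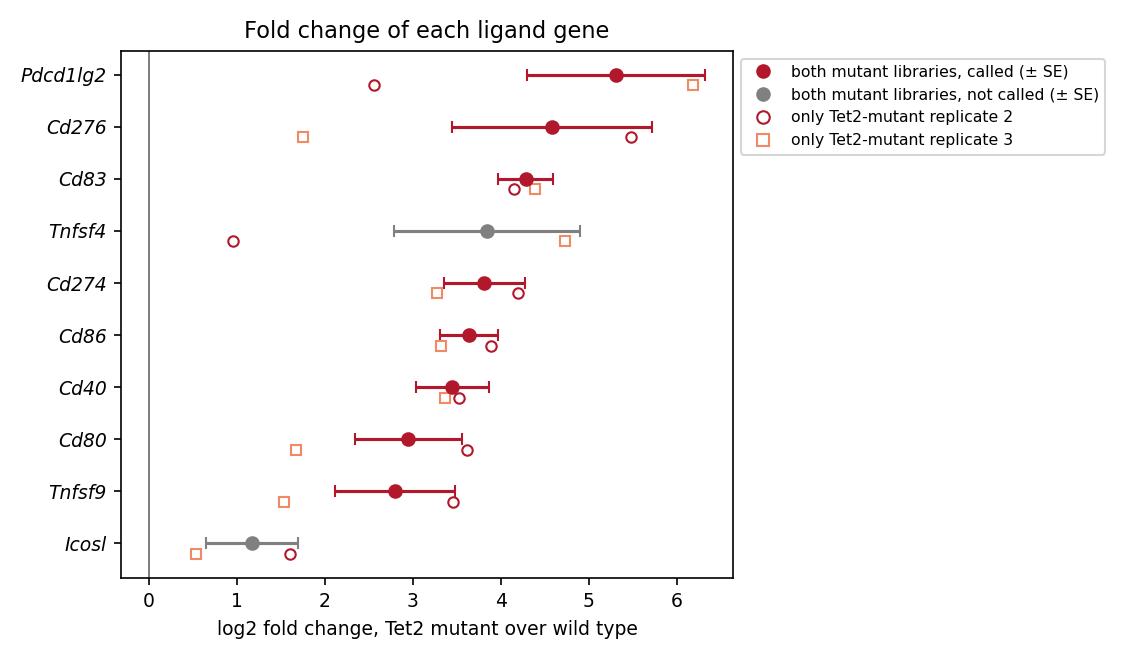
Log2 fold change of Tet2 mutant over wild type for each ligand gene with its SE (filled points, red where adjusted p is under 0.05), and the estimate with a single mutant library (open symbols). The open symbols nearly coincide for Cd40 and Cd83 and are widest apart for Pdcd1lg2, Cd276 and Tnfsf4.

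Levels can be set against each other per length of annotated exon. In CPM per kilobase averaged over the mutant libraries the order was Cd83 at 202.9, Cd86 at 55.5, Cd40 at 34.7, Cd274 at 15.4, Tnfsf9 at 13.6, Pdcd1lg2 at 12.7, Cd80 and Icosl at 11.4 each, Tnfsf4 at 5.35 and Cd276 at 2.12. Cd83 at 186.2 and 219.6, Cd86 at 66.2 and 44.7 and Cd40 at 36.7 and 32.7 CPM per kilobase in mutant replicates 2 and 3 did not overlap, while the ranges of the 5 genes below Cd40 overlapped one another. In the wild type the order was Cd83 at 10.4, Icosl at 5.08, Cd86 at 4.46, Cd40 at 3.18, Tnfsf9 at 1.96, Cd80 at 1.47, Cd274 at 1.09, Tnfsf4 at 0.374, Pdcd1lg2 at 0.319 and Cd276 at 0.0875 CPM per kilobase. There Cd83, Icosl, Cd86 and Cd40 each overlapped the next in the order over the 3 libraries. Icosl stood above Cd86 in wild-type replicate 1 (8.19 and 5.78 CPM per kilobase) and below it in replicates 2 and 3 and in both mutant libraries.

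Ratios of counts within a library do not depend on scaling, and 7 were compared by exact permutation tests over the 5 libraries (two-sided, smallest p possible 0.2). The Icosl to Cd86 ratio was 0.294 and 0.207 in mutant replicates 2 and 3, against 1.79, 1.24 and 1.09 in wild-type replicates 1, 2 and 3. The mutant minus wild-type difference of the log2 ratio was -2.44, with the groups fully apart (exact permutation p = 0.2, 0.7 adjusted over the 7 ratios). Cd83 to Cd86 was 1.98 and 3.45 in the mutant libraries and 1.60, 1.90 and 1.45 in the wild-type libraries, also without overlap (log2 difference 0.67, exact permutation p = 0.2, 0.7 adjusted). Cd274 to Cd86 was nearly level between genotypes at 0.300 and 0.235 in the mutant and 0.256, 0.213 and 0.253 in the wild type (log2 difference 0.15, exact permutation p = 0.6). Cd40 to Cd86 overlapped as well (log2 difference -0.10, exact permutation p = 1, the sign turning without wild-type replicate 2 or Tet2-mutant replicate 2). Cd80 to Cd86 was 0.276 and 0.106 in the mutant and 0.313, 0.271 and 0.429 in the wild type (log2 difference -0.95, exact permutation p = 0.4).

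The ratios that crossed the mutant libraries were extreme. Pdcd1lg2 to Cd274 was 0.0512 and 1.20 in mutant replicates 2 and 3, on either side of 0.126, 0.242 and 0.134 in wild-type replicates 1, 2 and 3 (exact permutation p = 0.8). Tnfsf9 to Tnfsf4 was 20.7 and 0.398 in mutant replicates 2 and 3, again on either side of 3.85, 4.09 and 3.21 in the wild type (exact permutation p = 0.8). In Tet2-mutant replicate 3 PD-L2 transcripts outnumbered those of PD-L1, which was so in no other library.

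**Figure D3:**
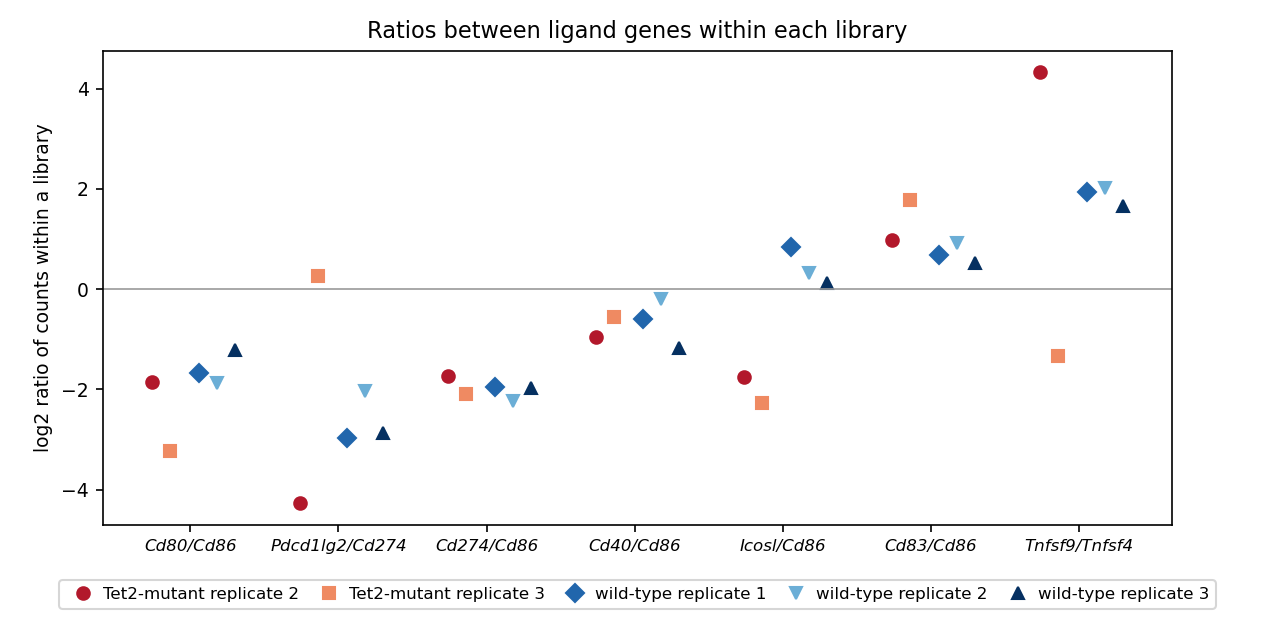
Log2 ratio of counts between pairs of ligand genes within each library, Tet2-mutant libraries in red and orange and wild-type libraries in blue. Icosl/Cd86 separates the genotypes without overlap, Cd274/Cd86 is close to level in all 5 libraries, and Pdcd1lg2/Cd274 and Tnfsf9/Tnfsf4 put the mutant libraries on opposite sides of the wild type.

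Between the mutant libraries, 7 of the 10 genes were higher in replicate 2 and 3 were higher in replicate 3. The 3 higher in replicate 3 were Cd83 at 1.18-fold, Pdcd1lg2 at 12.4-fold and Tnfsf4 at 13.6-fold. Marker genes of other cells moved between the same libraries. The 10 B cell markers summed to 951.3 and 7520.8 CPM (mutant replicates 2 and 3), against 707.7, 657.2 and 148.2 CPM in wild-type replicates 1, 2 and 3, so that replicate 3 was 7.91-fold above replicate 2. The leading genes were Cd79a and Cd79b, which transmit signals from surface antibody. Cd79a stood at 333.7 and 2822.4 CPM (mutant) and at 166.7, 186.9 and 34.7 CPM (wild type). Fcer2a was the exception between the mutant libraries, at 3.01 and 0.277 CPM in replicates 2 and 3. Against the wild type 3 of the 10 markers rose, while Fcer2a and Cr2 had log2 fold changes of -2.57 and -0.52 and did not pass. The part of B cells in the Pdcd1lg2 and Tnfsf4 values was not tested. Cd83, Cd40, Cd86 and Cd274 were within 2-fold between the mutant libraries, and the part of B cells in their values was not tested either.

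The summed markers of mature dendritic cells were higher in replicate 2, as were Cd80, Tnfsf9 and Cd276, but the markers were split. The 6 markers summed to 166.3 and 84.9 CPM (mutant replicates 2 and 3), against 22.0, 14.7 and 5.40 CPM in wild-type replicates 1, 2 and 3. Ccl22, a chemokine of mature dendritic cells, was 11.4-fold higher in mutant replicate 2 than in 3, Fscn1 4.02-fold and Il12b 3.53-fold. Cacnb3, at 0.238 and 7.12 CPM (mutant replicates 2 and 3), and Ccl17, at 0.0792 and 1.14 CPM, were higher in mutant replicate 3, and Ccr7, which guides mature dendritic cells to lymph nodes, was nearly even at 57.7 and 54.1 CPM. The summed erythroid markers were higher in replicate 2 as well, at 12498.4 and 1895.7 CPM (mutant replicates 2 and 3), against 5167.9 to 14307.7 CPM in the wild type. Stromal markers, from cells that can carry B7-H3, summed to 21.6 and 1.98 CPM (mutant replicates 2 and 3), against 54.9 to 98.1 CPM in the wild type, and Col3a1 was at 0 counts in both mutant libraries. The part of these cells in the ligand values was not tested.

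**Figure D4:**
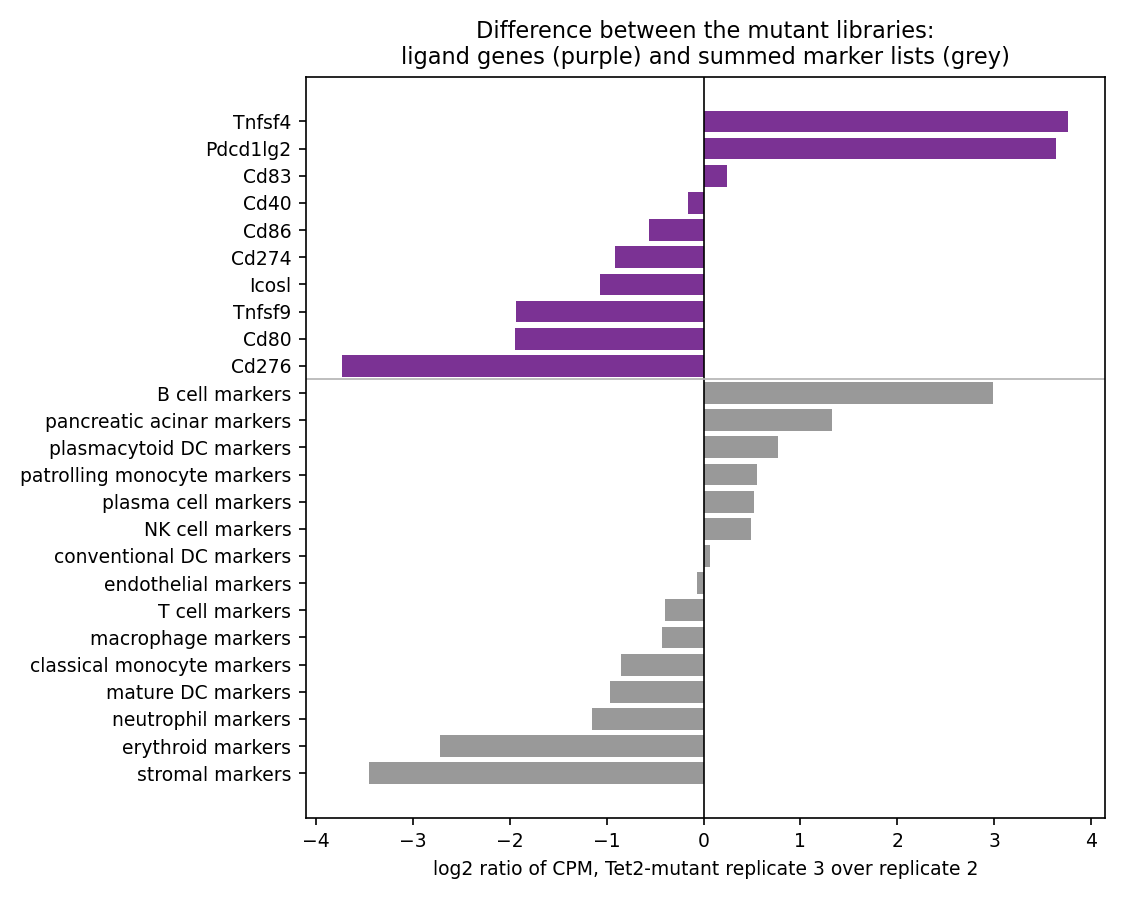
Log2 ratio of CPM in Tet2-mutant replicate 3 over Tet2-mutant replicate 2 for each ligand gene (purple) and for the summed markers of 15 cell types (grey); each bar is 1 pair of libraries, with no replicate. Tnfsf4 and Pdcd1lg2 lie on the same side as the summed B cell, acinar, plasmacytoid dendritic cell, patrolling monocyte, plasma cell and NK cell markers. Cd276, Cd80 and Tnfsf9 lie on the other side, with the summed stromal, erythroid, neutrophil, mature dendritic cell, classical monocyte, macrophage and T cell markers. The conventional dendritic cell and endothelial sums are nearly level, at ratios of 1.05 and 0.952. Single markers can differ from their sum. In the conventional dendritic cell list Cd209a was 2.07-fold higher in replicate 3 and Itgax 2.92-fold higher in replicate 2. In the plasmacytoid list Tcf4 was 5.42-fold higher in replicate 3 and Siglech 7.43-fold higher in replicate 2.

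Of the markers of antigen-presenting cells, part of each list rose, beside 10.6% of all tested genes. Of 10 macrophage markers, led by C1qb and C1qc, 9 rose, with a sum of 4493.6 and 3329.3 CPM (mutant replicates 2 and 3), against 278.2 to 374.9 CPM in the wild type. Siglec1 was the exception and was at 0 counts in Tet2-mutant replicate 3. Of 8 conventional dendritic cell markers, led by Cd209a and Itgax, 5 rose, and the list summed to 753.4 and 791.0 CPM (mutant) and to 73.6 to 99.7 CPM in the wild type. For mature dendritic cells, led by Ccr7 and Il12b, 3 of 5 tested markers rose, and for patrolling monocytes, led by Treml4 and Cd300e, 4 of 8. Among classical monocyte markers, led by Chil3 and Ly6c2, 2 of 8 rose, and the list summed to 7983.0 and 4417.6 CPM (mutant replicates 2 and 3), against 5110.5 to 5481.8 CPM in the wild type. F13a1 of this list was lower, at 235.8 and 68.5 CPM (mutant replicates 2 and 3), against 436.1, 350.7 and 398.1 CPM in wild-type replicates 1, 2 and 3. It did not pass (log2 fold change -1.38, edgeR adjusted p = 0.0905), nor did Ly6c2 (log2 fold change -0.62). The part of these cells in the ligand values was not tested.

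The remaining lists are read against the same share of 10.6% of all tested genes that rose. B cell markers rose in 3 of 10 cases, plasma cell markers (led by Jchain and Xbp1) in 1 of 5 and plasmacytoid dendritic cell markers (led by Tcf4 and Bst2) in 1 of 5. The plasmacytoid marker that rose was Bst2 (log2 fold change 1.89). Siglech went the other way, at 8.64 and 1.16 CPM (mutant replicates 2 and 3), against 25.0, 29.3 and 33.5 CPM in wild-type replicates 1, 2 and 3. It did not pass (log2 fold change -2.61, edgeR adjusted p = 0.0673). T cell markers, led by Trac and Lck, rose in 5 of 8 cases, and all 6 markers of the pancreatic acinus, led by Prss2 and Cpb1, rose, with a sum of 412.2 and 1034.2 CPM (mutant replicates 2 and 3), against 1.81 to 2.48 CPM in the wild type. Of 8 neutrophil markers, led by Ngp and Ltf, Padi4 fell in edgeR, beside 4.43% of all tested genes that fell. Ltf, Mpo and Elane also lay below every wild-type library but did not pass (log2 fold changes -0.88, -2.24 and -1.89), while Ngp overlapped the wild type. At an unadjusted p under 0.05, in DESeq2 and in limma-voom, 3 of the 8 were lower and 0 higher. In edgeR 0 of 5 markers passed for NK cells (Nkg7 and Gzma leading), for erythroid cells (Hbb-bs and Hba-a1), for endothelium (Egfl7 and Tie1) and for stroma (Cxcl12 and Col1a2). At an unadjusted p under 0.05 these lists had 1, 1, 2 and 3 lower and 0 higher genes in that order. DESeq2 called 1, 0, 2 and 2 lower, and limma-voom 0, 1, 2 and 2 lower. Of all 17062 tested genes, DESeq2 called 2137 lower and limma-voom 1365. The number of all genes lower at an unadjusted p was not computed.

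Receptors of T cells were compared as well, some of which bind the 10 ligands and some others. The list held 16 genes, all of receptors apart from Cd40lg, which encodes CD40 ligand. Of the 16 genes 13, Cd40lg among them, rose and 0 fell in edgeR, beside 10.6% of all tested genes that rose (median log2 fold change of the 16 genes 3.96). At an unadjusted p under 0.05 14 were higher and 0 lower (20.5% of all tested genes were higher). DESeq2 called 14 higher and 0 lower (17.4% higher), and limma-voom 12 higher and 0 lower (10.8% higher). Without wild-type replicate 1 the number was 8, in a fit where 3.81% of all tested genes rose. Ctla4, the inhibitory receptor of CD80 and CD86, was at 98.6 and 47.7 CPM (mutant replicates 2 and 3), against 1.25, 1.68 and 3.38 CPM in wild-type replicates 1, 2 and 3 (log2 fold change 5.12 ± 0.58 SE, edgeR adjusted p = 0.00336). Icos, the receptor of Icosl, was at 34.7 and 54.2 CPM (mutant) and 2.04, 1.44 and 3.23 CPM (wild type) (log2 fold change 4.31 ± 0.50 SE, edgeR adjusted p = 0.00376). The ICOS receptor thus passed where its ligand did not, and the difference between the 2 changes was not tested.

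Tnfrsf4, encoding the OX40 receptor, was at 214.7 and 103.2 CPM (mutant replicates 2 and 3), against 3.19, 3.17 and 8.36 CPM in wild-type replicates 1, 2 and 3 (log2 fold change 5.02 ± 0.58 SE, edgeR adjusted p = 0.00358). It was high in both mutant libraries, while its ligand Tnfsf4 was well above the wild type in replicate 3. Havcr2 (TIM-3) and Tigit, inhibitory receptors, rose by 5.65 ± 0.51 and 5.40 ± 0.61 on the log2 scale (SE; edgeR adjusted p = 0.00156 and 0.00348), and Tnfrsf18 (GITR) by 3.10 ± 0.28 (SE; edgeR adjusted p = 0.00156). Macrophages and dendritic cells also carry TIM-3. Of the other partners of the ligands, named for that role and not by the rule on p, Cd28 was at 24.6 and 52.5 CPM (mutant replicates 2 and 3), against 5.70, 4.37 and 5.58 CPM in wild-type replicates 1, 2 and 3. Pdcd1 (PD-1) was at 23.6 and 36.9 CPM (mutant) and 1.49, 1.82 and 4.13 CPM (wild type), and Tnfrsf9 (4-1BB) rose by 3.31 ± 0.62 on the log2 scale (SE; edgeR adjusted p = 0.0196). Cd40lg also differed between the mutant libraries, with 23.4 and 1.99 CPM, against 0.764, 0.298 and 0.686 CPM in the wild type (log2 fold change 4.43 ± 1.08 SE, edgeR adjusted p = 0.0405). Cd226, Cd27 and Tnfrsf25 did not pass (for Cd27 and Tnfrsf25, log2 fold changes 1.27 and 2.59, edgeR adjusted p = 0.234 and 0.101). The T cell markers stood at 1122.5 and 850.4 CPM (mutant replicates 2 and 3), against 100.8 to 195.7 CPM in the wild type, and their part in the receptor values was not tested.

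**Figure D5:**
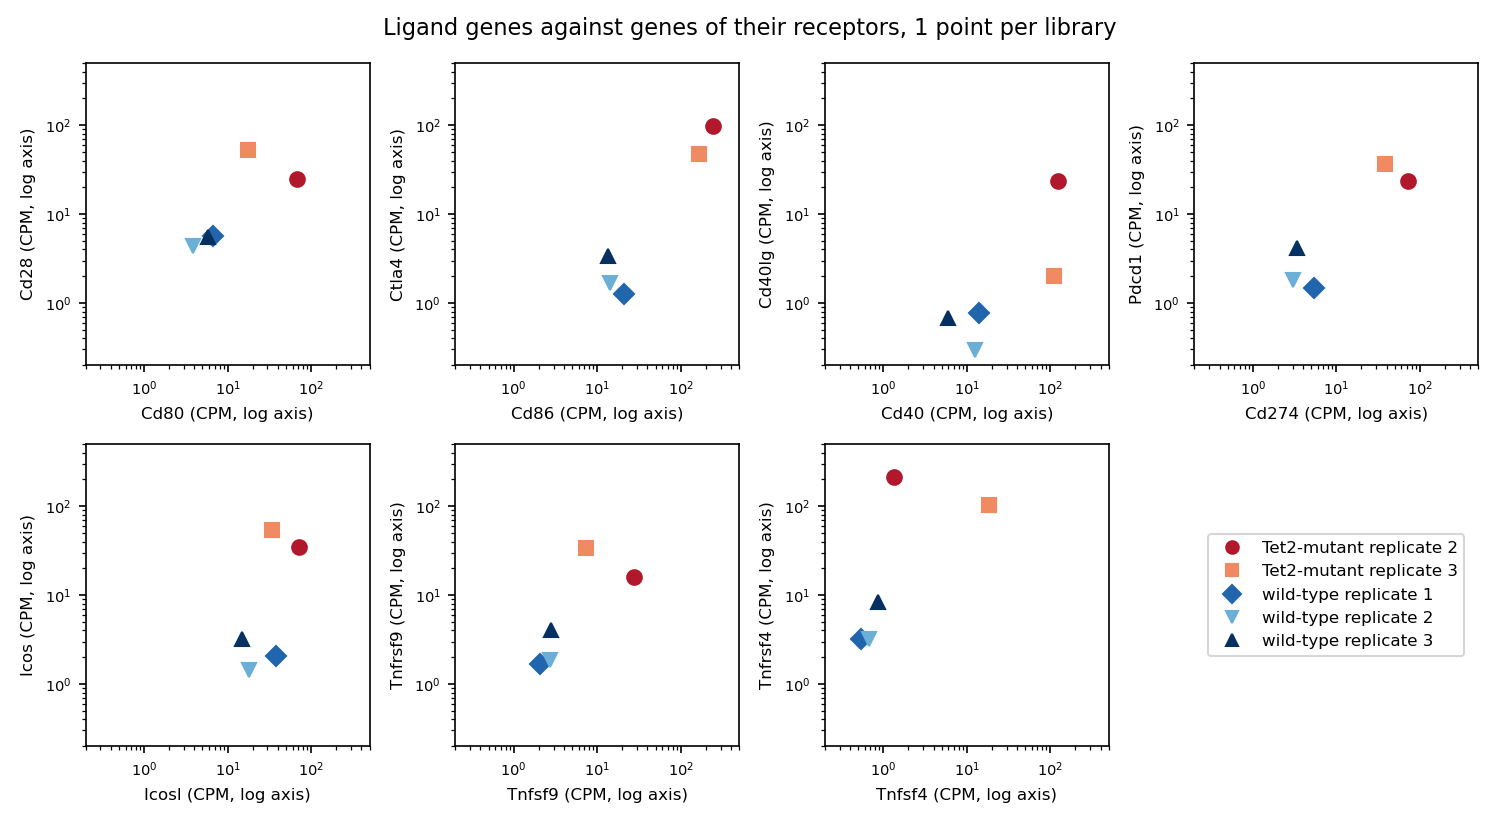
CPM of 7 of the genes (horizontal) against the gene of a binding partner (vertical) on log axes with the same limits, 1 point per library. The partner is a receptor, except that Cd40 encodes the receptor and its partner Cd40lg the ligand. Mutant libraries (red and orange) lie above and to the right of the wild type (blue) in most panels; in the panel of Tnfsf4 and Tnfrsf4 the red point of Tet2-mutant replicate 2 is high for the receptor at 214.7 CPM and low for the ligand at 1.35 CPM.

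Of 16 further ligand genes of T cell signals 13 were tested, 3 rose and 1 fell (10.6% and 4.43% over all tested genes), with a median log2 fold change of 0.63. Vtcn1 had no counts in any library, and Cd70 and Tnfsf18 were too low to test. Cd48, the ligand of CD2 in mice, was at 534.4 and 526.6 CPM (mutant replicates 2 and 3), against 83.7, 96.7 and 90.4 CPM in wild-type replicates 1, 2 and 3 (log2 fold change 2.55 ± 0.22 SE, edgeR adjusted p = 0.0015). The adhesion ligand Icam1 rose by 2.86 ± 0.27 (SE; edgeR adjusted p = 0.00168) and Cd200 by 2.29 ± 0.56 on the log2 scale (SE; edgeR adjusted p = 0.0408).

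Tnfsf14, encoding LIGHT, was the ligand that fell, to 9.59 and 6.20 CPM (mutant replicates 2 and 3), against 33.3, 23.8 and 28.4 CPM in wild-type replicates 1, 2 and 3 (log2 fold change -1.86 ± 0.42 SE, edgeR adjusted p = 0.0341). Tnfsf14 lies near Tnfsf9 on chromosome 17, at chr17:57189492-57194177 (minus strand). Tnfrsf14, the receptor of LIGHT, had a log2 fold change of -3.29 ± 1.11 (SE; edgeR adjusted p = 0.0779), and Tnfsf15 of 4.99 ± 1.80 with 13.6 and 0.0185 CPM in mutant replicates 2 and 3 (SE; edgeR adjusted p = 0.0909). The calls in this list numbered 2 without any 1 wild-type library, where 3.85%, 5.52% and 5.17% of all tested genes were called. They numbered 9 without mutant replicate 2 or 3, where 58.7% and 39.4% of all tested genes were called.

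Of 22 regulators and signalling genes 12 rose and 0 fell in edgeR, beside 10.6% of all tested genes that rose (median log2 fold change of the 22 genes 1.33). At an unadjusted p under 0.05 16 were higher and 0 lower (20.5% of all tested genes were higher). DESeq2 and limma-voom each called 12 higher and 0 lower (17.4% and 10.8% of all tested genes higher). The number was 7 without wild-type replicate 1 or 3, in fits where 3.81% and 5.09% of all tested genes rose. Relb, an NF-kB subunit that CD40 activates, was at 176.3 and 108.8 CPM (mutant replicates 2 and 3), against 16.8, 14.2 and 10.9 CPM in wild-type replicates 1, 2 and 3 (log2 fold change 3.35 ± 0.34 SE, edgeR adjusted p = 0.00219). Irf1, a factor that interferon-gamma induces and that drives Cd274, was at 466.7 and 306.2 CPM (mutant) and 95.7, 87.1 and 96.8 CPM (wild type) (log2 fold change 2.05 ± 0.26 SE, edgeR adjusted p = 0.00539). Nfkb1, the p50 precursor, rose by 1.66 ± 0.26 on the log2 scale (SE; edgeR adjusted p = 0.0109).

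Ifngr1, a chain of the interferon-gamma receptor, rose by 1.89 ± 0.24 (SE; edgeR adjusted p = 0.00563), and Ciita, the master regulator of MHC class II, by 3.84 ± 0.53 on the log2 scale (SE; edgeR adjusted p = 0.00691). Traf1, an adaptor of TNF receptors including 4-1BB, was at 46.8 and 115.3 CPM (mutant replicates 2 and 3), against 12.4, 7.58 and 9.87 CPM in wild-type replicates 1, 2 and 3 (log2 fold change 3.03 ± 0.45 SE, edgeR adjusted p = 0.00969). Spi1 (PU.1) and Traf2 did not pass (log2 fold changes 0.89 and 0.58, edgeR adjusted p = 0.0697 and 0.102).

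For each ligand the tested genes with the most similar profile over the 5 libraries were looked up, by Euclidean distance between centred log2 CPM among 13507 named genes. With 5 libraries a small distance says that the profiles ran close, though the order of libraries could still differ, as between Cd40 and Igkj2 in the mutant. Klrk1, a receptor gene of NK and T cells, was nearest to Cd80 (distance 0.0997), with 262.4 and 69.8 CPM (mutant replicates 2 and 3), against 27.6, 15.4 and 21.9 CPM in wild-type replicates 1, 2 and 3. Itgb5 came next for Cd80, Abcg1 and Gpm6b were nearest to Cd86, Rasgef1b and Igkj2 to Cd40, and Tnfrsf11a and Dusp4 to Cd274. For Cd83 the nearest were H2-Oa, a chain of the class II modulator H2-O, and the monocyte gene Treml4 (distances 0.536 and 0.59).

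Hepacam2 was among the genes nearest to Pdcd1lg2 (distance 0.455), with 16.3 and 198.1 CPM (mutant replicates 2 and 3), against 3.31, 4.62 and 2.77 CPM in wild-type replicates 1, 2 and 3. For Tnfsf4 the nearest were Gpr82 and Echdc3, for Icosl Fmnl1 and Pip5k1c, for Cd276 Pald1 and Hsd17b14, and for Tnfsf9 Nfya and Pmepa1.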

How the data were processed

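RNA-seq read counts per gene symbol, 1 file per library, were deposited by the authors and used as deposited. Libraries were made with a SMARTer mRNA kit from RNeasy-purified RNA, per the labels' protocols. Trimmomatic, STAR and mm10 are named in the submitters' processing notes. Counter, annotation and strand setting were not given in the sources used here, so reads of overlapping genes could have been shared.

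Counts were analysed in R 4.3.3 with edgeR 4.0.16 (filterByExpr, TMM, quasi-likelihood F-test, Benjamini-Hochberg adjustment over 17062 genes, called at 0.05). The SE is the absolute log2 fold change divided by the square root of F. CPM values use TMM-adjusted library sizes. The method was also run on simulated counts with known changes in some genes, and the outcome is not reported here. Apart from these changes and random spread, the simulated libraries shared 1 make-up, unlike the real ones. Exact permutation tests used SciPy 1.17.1, with 0.5 added to the counts in each ratio. No molecular identifiers are named, so amplified reads count as counts.

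The 10 genes and all lists were chosen with earlier results of these data known. Named genes are the 10 ligands, up to 6 called genes of smallest p and up to 2 uncalled ones of each of the ligand, receptor and regulator lists, the nearest 2 genes by profile, and the 2 most abundant genes of each marker list. 1 gene that the profile rule names is not reported here. Csf1r, F13a1, Fcer2a, Cr2, Ccl22, Fscn1, Cacnb3, Ccl17, Cd226, Siglec1, Siglech, Col3a1, Padi4, Mpo, Elane, Vtcn1, Cd70 and Tnfsf18 were picked as examples after their values were seen, as was the NF-kB motif after the promoters were seen. Alternatives were other scaling and filters, DESeq2 1.42.0, limma 3.58.1 (voom), thinning to 17459808 counts, the replicate block and each library left out. All 10 symbols matched GENCODE M21, whose merged exons gave the lengths; 5 matched the RefSeq promoter table.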

Additional observations from a re-analysis of the deposited data

How the results depend on the processing

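All 137 values of the 10 ligands under the 14 alternatives lay above 0, and 116 of them also kept their side of the threshold. Pdcd1lg2, Cd276 and Tnfsf4 had too few wild-type counts for the filter of 1 CPM in at least 3 libraries. With limma-voom, Cd276 (3.11, adjusted p = 0.0862) and Tnfsf9 (2.13, adjusted p = 0.0563) did not pass, nor did Cd276 after thinning (4.56, edgeR adjusted p = 0.0645). Tnfsf4 passed with RLE scaling (3.88, edgeR adjusted p = 0.0491), with no filter beyond 1 count (3.85, edgeR adjusted p = 0.00119) and with DESeq2 (3.88, adjusted p = 0.000562). The cause of these changes was not tested.

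Replicate numbers 2 and 3 occur in both genotypes, but deviations of libraries with the same number correlated at -0.03 and -0.02, so the numbers were not taken to pair the samples. With the replicate block, 984 genes and 2 further ligands of the second list were called, and Cd276 (4.03) and Tnfsf9 (2.37) did not pass. The block changed no other call among the 10 ligands.

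Called genes over the whole table numbered 2556. They were 4058 with plain library totals (1181 higher, 2877 lower), 3256 with upper-quartile scaling (1419 higher, 1837 lower), 4557 with no filter beyond 1 count, 5109 with DESeq2 and 1662 after thinning. The further ligands numbered 4, and were 9 with no filter and 8 with DESeq2. With 1 library left out, calls ran from 622 to 10862 genes, 4 to 9 ligands, 2 to 9 further ligands, 8 to 15 receptors and 7 to 18 regulators. Log2 fold changes then ran from 1.67 to 3.62 for Cd80, 2.56 to 6.19 for Pdcd1lg2, 0.53 to 1.80 for Icosl, 1.76 to 5.47 for Cd276, 1.53 to 3.46 for Tnfsf9 and 0.96 to 4.73 for Tnfsf4. Differences of log2 ratios ran from -1.64 to 2.89 for Pdcd1lg2/Cd274, from -0.0305 to 0.321 for Cd274/Cd86, from -0.36 to 0.13 for Cd40/Cd86 and from -3.20 to 2.46 for Tnfsf9/Tnfsf4, each with a turn of sign. Tnfsf4 and Pdcd1lg2 had 17 and 47 counts in mutant replicate 2, and thinning every library to its depth changed the call of Cd276 alone among the 10 ligands.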
